A study of Mus musculus with 12 samples.

Results

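The population by metastasis interaction asks, gene by gene, whether transcript levels in 2 sorted marrow populations of the mouse differ in how they compare between metastatic and healthy bone marrow. It was taken as the log2 ratio of metastatic to normal marrow in cells sorted on VCAM1, CD163 and CCR3, minus the same log2 ratio in cells sorted on CD11b and F4/80. A negative value means that the first population was relatively lower with metastasis than the second, and a positive value that it was relatively higher. All 12 of the 12 libraries of the series entered, 3 in each of 4 groups.

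Bone marrow cells came from the flushed femur and tibia of female Albino B6 mice, 8 weeks old. Metastatic marrow was from mice that had received E0771 cells, a mouse mammary carcinoma line, through the caudal artery, and normal marrow was from healthy controls. Red cells were lysed, and single live cells were sorted either on CD11b and F4/80, called general macrophages here, or on VCAM1, CD163 and CCR3, called niche macrophages here. The sample titles use the word general for both sorts, while the description of the sort names the second one niche-specific. The 3 libraries of a group are described as separate mice. The 3 normal niche libraries are named A, B and C because their table columns carry other numbers than their titles.

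Erythroblastic islands are clusters in the marrow in which a central macrophage holds maturing red cell precursors on its surface, partly through the adhesion molecule VCAM1. The central macrophage swallows the nuclei that the precursors expel, breaks down haem and returns the iron through the exporter ferroportin. CD163 takes up haemoglobin bound to haptoglobin, and CCR3 is the eotaxin receptor, best known from eosinophils. CD11b and F4/80 mark a wider set of myeloid cells, among them monocytes and macrophages.

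The libraries held 13687957 to 30332442 counts, and 12882 of the 18467 genes in the table had enough counts to be tested. Levels are given as CPM, the counts of a gene relative to the library total, after scaling by the trimmed mean of M-values, and 3 counts, the level used as a floor, corresponded to 0.109 to 0.243 CPM. CPM is not corrected for gene length, so a gene's share of a list's sum is a share of counts and not of molecules. Between 7689 and 12658 genes reached 10 counts in a library. Replicates of a group agreed least among normal niche libraries, where Pearson's r of log2 CPM across genes was 0.626 to 0.652, and most among metastatic general libraries, at 0.828 to 0.858. The metastasis effect itself was called by edgeR for 2 genes in general (0.0155% of those tested) and 1 gene in niche macrophages (0.00776%), by DESeq2 for 141 and 954, and in niche macrophages by edgeR for 66 without normal niche library B and 26 without C. Of the defining antigens, Vcam1, Cd163 and Ccr3 had their highest levels in niche libraries, and Itgam, which encodes CD11b, was highest in normal general libraries. Adgre1, which encodes F4/80, did not follow the sort labels and was higher in each normal niche library than in any general library. In bulk RNA, fewer cells of a type and less RNA per cell cannot be told apart.

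No gene passed the test of the interaction at an adjusted p under 0.05 with edgeR's quasi-likelihood test and Benjamini-Hochberg adjustment, a percent called of 0, and the smallest adjusted p was 0.452. Without normal niche library B edgeR called 16 genes, and without metastatic general library 2 it called 1. At an unadjusted p under 0.05 there were 1016 genes, 7.89% of those tested, of which 526 (4.08%) had a positive and 490 (3.8%) a negative difference. With DESeq2, 410 genes had an adjusted p under 0.05, 3.18% of those tested, 240 positive (1.86%) and 170 negative (1.32%), and 1044 genes received no adjusted p. Single genes were thus called by DESeq2 and not by edgeR, and every value given below as an edgeR p without the word adjusted is unadjusted.

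Replicate error set the limit on what single genes could show. The standard error (SE) of the log2 difference had a median of 2.24 over all tested genes, 0.79 over the 4867 genes with at least 10 counts in every library and 0.50 over the 1880 genes that averaged 100 CPM or more. Across all genes the median log2 difference was -0.13, from a median effect of -0.01 in general and -0.17 in niche macrophages. These medians move with scaling: with library size only the median difference was 0.10, and the 2 directions at unadjusted p under 0.05 became 645 positive and 355 negative. The medians of gene lists given below are therefore read against -0.13.

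In this well-expressed set 49 were positive and 96 negative at an unadjusted p under 0.05, and the effects in the 2 populations had the same sign in 57.4% of genes. Across these genes the 2 effects had a Pearson's r of 0.216, given as a description because genes are not independent replicates. Of the 526 positive genes among all tested ones, 442 were higher with metastasis in niche and lower in general macrophages. Of the 490 negative genes, 446 had the opposite arrangement. Selection for a large difference between the 2 effects favours opposite signs by itself, so these counts do not show a reversal. Over all tested genes the 2 signs were the same in 53.0%. At least 1 group was at the floor in 304 of the positive and 222 of the negative genes. The 4867 genes with counts in every library gave 75 positive and 170 negative in the fit of all genes. Fitted alone, with scaling and dispersion estimated from them only, they gave 135 positive and 125 negative.

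**Figure D1:**
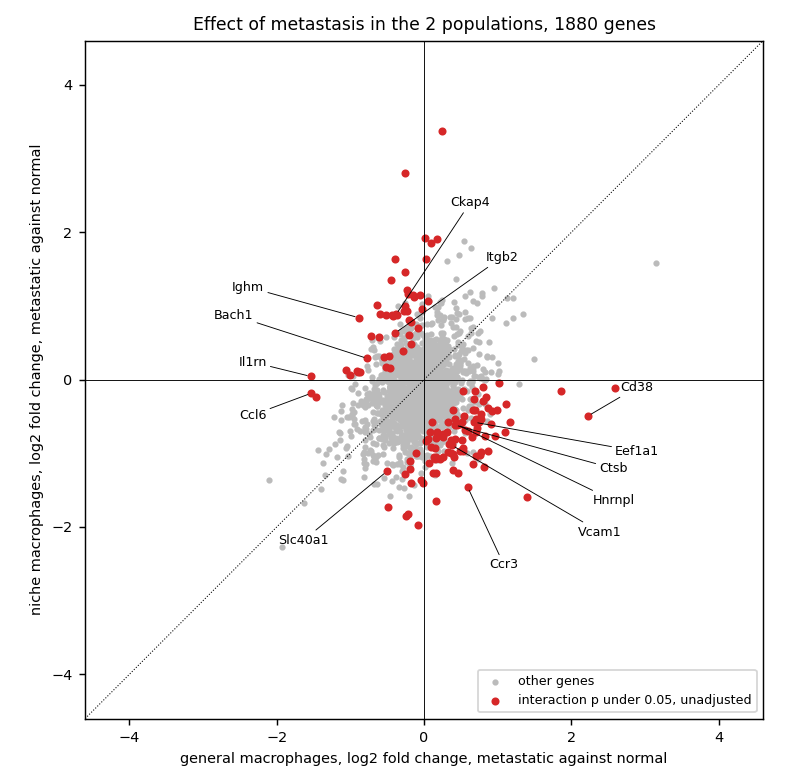
Log2 ratio of metastatic to normal marrow in general macrophages (x axis) against that in niche macrophages (y axis) for the 1880 genes averaging 100 CPM or more. Red points have an unadjusted edgeR p under 0.05 for the difference, and the dotted line marks equal effects: the labelled Vcam1, Ctsb, Cd38, Eef1a1 and Hnrnpl lie under it, and Bach1, Itgb2, Il1rn, Ckap4 and Ighm lie over it.

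Transcripts of Ccr3 and Vcam1, antigens of the niche sort, were lower in niche macrophages of metastatic marrow without overlap, while in general macrophages their means were higher. Ccr3 (chr9:124021972-124031689 in GRCm38) stood at 675, 601 and 378 CPM in the 3 normal niche libraries and at 316, 118 and 168 CPM in the 3 metastatic ones. In general macrophages it stood at 12.6, 8.25 and 13.5 CPM in normal and at 14.96, 19.8 and 17.1 CPM in metastatic marrow. Every metastatic niche library was below every normal one, and every metastatic general library was above every normal one, an arrangement that 45 of all tested genes (0.349%) shared. The log2 difference of Ccr3 was -2.05 ± 0.52 (SE), with an edgeR p of 0.00084, an edgeR adjusted p of 0.452 and a DESeq2 adjusted p of 0.0248.

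Vcam1 (chr3:116109949-116129688), the integrin ligand that tethers erythroblasts, drew the most counts of the 5 antigens. It measured 2248, 2088 and 2146 CPM in normal and 1621, 938 and 938 CPM in metastatic niche libraries. The general libraries held 86.7, 47.6 and 55.9 CPM in normal and 92.5, 67.02 and 87.6 CPM in metastatic marrow. The niche groups did not overlap, and the general groups did, since the lowest metastatic general library lay below the highest normal one. The log2 difference was -1.27 ± 0.37, with an edgeR p of 0.00294 and a DESeq2 adjusted p of 0.0518, just outside the threshold.

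Cd163, the haemoglobin scavenger receptor, measured 941, 735 and 709.9 CPM in normal and 789, 297 and 344 CPM in metastatic niche libraries, and at most 27.95 CPM in any general library. The first metastatic niche library lay within the normal range and the other 2 lay below it, and the log2 difference of -1.02 ± 0.94 had an edgeR p of 0.292. The first normal general library stood above the other 2 (27.95, 1.96 and 2.15 CPM), and without it the difference was -3.40, with -0.54 as the value nearest 0 over the alternatives. Adgre1 had a difference of -0.79 ± 0.47 and Itgam of 0.53 ± 0.37, with edgeR p of 0.107 and 0.167. Over the 5 antigens, 4 differences were negative and 1 positive, and the median was -1.02. These transcripts encode the antigens the cells were gated on, so a shift within the gate and a change in transcript level per cell cannot be told apart.

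**Figure D2:**
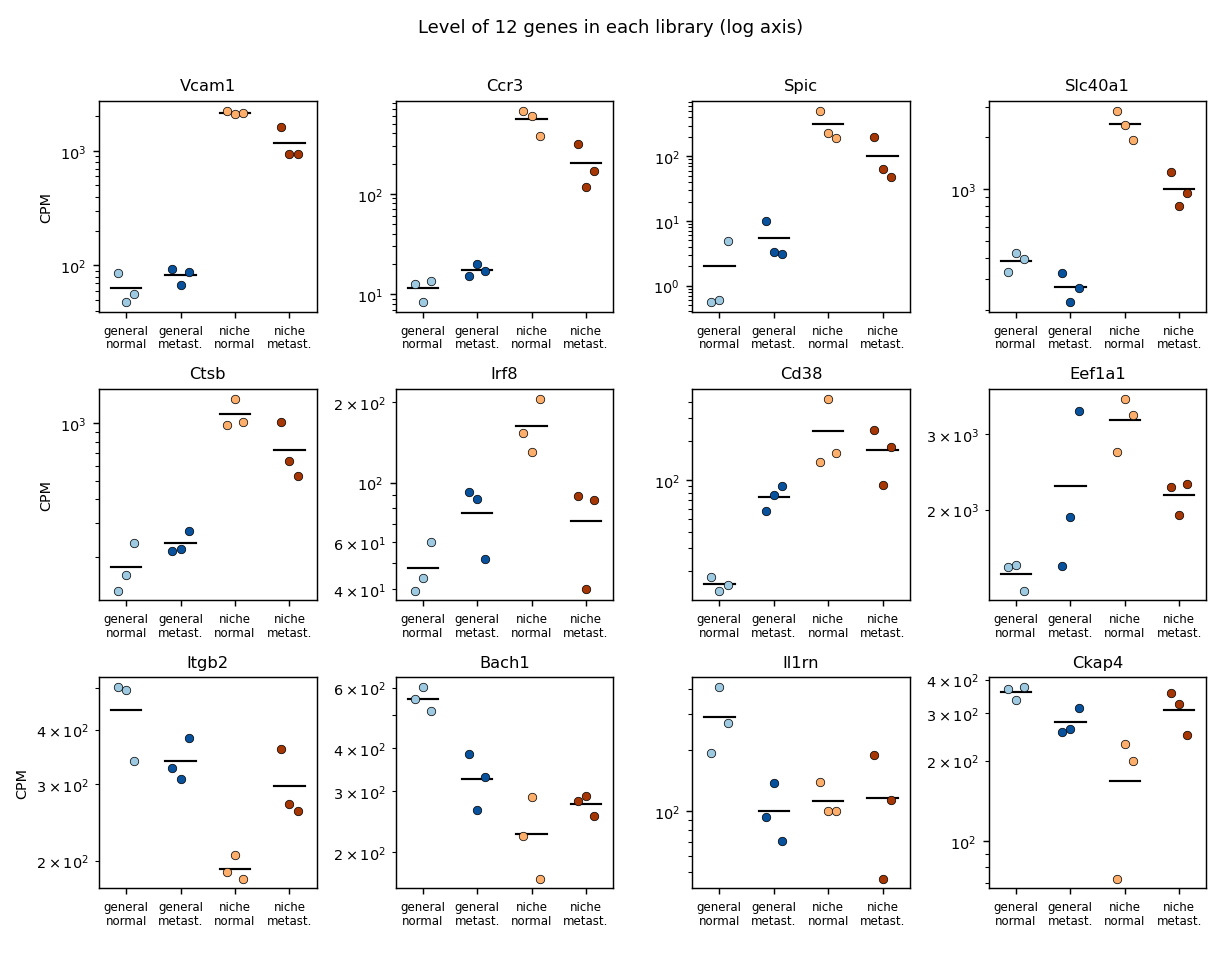
Levels in CPM (log axis) of 12 genes in the 12 libraries, points standing for libraries and lines for group means, in normal and metastatic general macrophages and in normal and metastatic niche macrophages. Vcam1, Ccr3, Spic and Slc40a1 sit lower in metastatic than in normal niche libraries, with 1 overlapping library for Spic, while Cd38 sits higher in metastatic than in normal general libraries.

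Genes of the erythroblastic island macrophage leaned to negative differences. Of 20 listed genes 19 were tested (Epor was not), and 14 were negative and 5 positive, against 53.5% negative and 46.5% positive over all genes. The median difference was -0.94, with a median effect of -0.10 in general and -1.10 in niche macrophages. At an unadjusted p under 0.05 there were 5 negative and 0 positive members, 26.3% of those tested against 7.89% of all genes. In 9 of the 19 members all metastatic niche libraries lay below all normal ones. This held for 7.11% of all tested genes and for 274 of the 1880 genes averaging 100 CPM or more. No member passed edgeR's adjusted threshold.

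Spic (chr10:88674772-88685015), the transcription factor that iron-recycling macrophages need, measured 510.0, 234 and 193 CPM in normal and 197, 63.9 and 48.5 CPM in metastatic niche libraries. In general macrophages it measured 0.549, 0.593 and 4.95 CPM in normal and 9.89, 3.30 and 3.07 CPM in metastatic marrow, levels far under those of niche libraries. The highest metastatic niche library lay just above the lowest normal one. The log2 difference was -3.00 ± 1.05, with an edgeR p of 0.0102 and a DESeq2 adjusted p of 0.108.

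Itgav, an integrin subunit that takes part in the uptake of dying cells, measured 325, 264 and 415 CPM in normal and 257, 150.3 and 194 CPM in metastatic niche libraries. General libraries held 102, 107 and 93.3 CPM in normal and 114, 137 and 110.1 CPM in metastatic marrow. The groups separated in both populations and in opposite directions, and the difference was -0.99 ± 0.43 with an edgeR p of 0.0316. Axl, a receptor for bridging molecules on apoptotic cells, measured 1631, 1284 and 1036 CPM in normal and 1064, 341 and 472 CPM in metastatic niche libraries, with general libraries between 4.74 and 50.6 CPM. Its metastatic niche libraries included 1 within the normal range, and its difference was -1.80 ± 0.86 with an edgeR p of 0.0506. Both genes also stand in the apoptotic cell clearance list, which did not lean the same way. It had 10 positive and 8 negative of 18 tested members, and a median niche effect of -0.04. Its median difference of 0.40 kept its sign in 19 of 23 alternatives. The 2 members at an unadjusted p under 0.05 were negative, 11.1% against 7.89% of all genes.

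Summed over the list, island transcripts were lower in metastatic niche macrophages as well. Normal niche libraries summed to 9469.9, 8564 and 7648 CPM and metastatic ones to 5656, 3236 and 3393 CPM. General libraries summed to 781, 788 and 779 CPM in normal and 758, 570.3 and 675 CPM in metastatic marrow. Metastatic libraries were lower without overlap in both populations, and the log2 ratio of the group means was -1.06 in niche and -0.23 in general macrophages. With library size only, the general groups overlapped. Among the metastatic niche libraries the first was nearer the normal ones for this sum, as it was for Vcam1, Cd163 and Spic. Summed monocyte markers, 59.4% of them Chil3, were higher in metastatic (9619 to 12243 CPM) than in normal niche libraries (6066 to 7440 CPM). Their part in the island values was not tested.

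Iron and haem genes leaned the same way, with 17 negative and 7 positive of 24 tested among 29 listed, and a median of -0.69. The iron and island lists are not separate, since both hold Slc40a1 and Hmox1, 23.2% and 10.2% of the iron sum. Slc40a1 was also 28.6% of the island sum. Slc40a1 (chr1:45908068-45926523), which encodes the iron exporter ferroportin, drew the most counts of the iron list's members. It measured 2839, 2360.1 and 1927 CPM in normal and 1258, 798 and 948 CPM in metastatic niche libraries, against 332, 428 and 392 CPM in normal and 326, 221 and 266 CPM in metastatic general libraries. Metastatic libraries were lower without overlap in both populations, and the effect was -1.25 ± 0.24 in niche and -0.51 ± 0.23 in general macrophages. The difference between these effects was -0.74 ± 0.33, with an edgeR p of 0.0366.

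Hmox1, the enzyme that opens the haem ring, measured 1388, 1056 and 859 CPM in normal and 835, 422 and 404 CPM in metastatic niche libraries. In general libraries it measured 76.9, 54.7 and 53.1 CPM in normal and 51.8, 61.1 and 59.02 CPM in metastatic marrow. The niche groups did not overlap and the general groups did, with a difference of -0.89 ± 0.41 and an edgeR p of 0.044. Slc48a1, which carries haem out of the phagolysosome, measured 281, 193 and 186 CPM in normal and 143, 57.1 and 73.2 CPM in metastatic niche libraries. Its general libraries overlapped between 25.4 and 96.0 CPM, and its difference was -1.73 ± 0.69 with an edgeR p of 0.0207.

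Bach1 (chr16:87698945-87733346), the haem-sensing repressor of Hmox1 and ferroportin genes, went the other way. It measured 555, 602 and 513 CPM in normal and 386, 265 and 329.7 CPM in metastatic general libraries, and 222, 289 and 167 CPM in normal and 282, 290.1 and 255 CPM in metastatic niche libraries. The general groups did not overlap, with the metastatic ones lower, and the niche groups overlapped. The difference was 1.06 ± 0.36, with an edgeR p of 0.00916 and a DESeq2 adjusted p of 0.088. It was the 1 positive iron gene at an unadjusted p under 0.05, beside 5 negative ones, together 25.0% of the tested members against 7.89% of all genes. The summed iron list was 8777, 7199.9 and 5734 CPM in normal and 5602, 3915 and 3886 CPM in metastatic niche libraries, a separation that was lost with median-of-ratios scaling and with library size only.

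**Figure D3:**
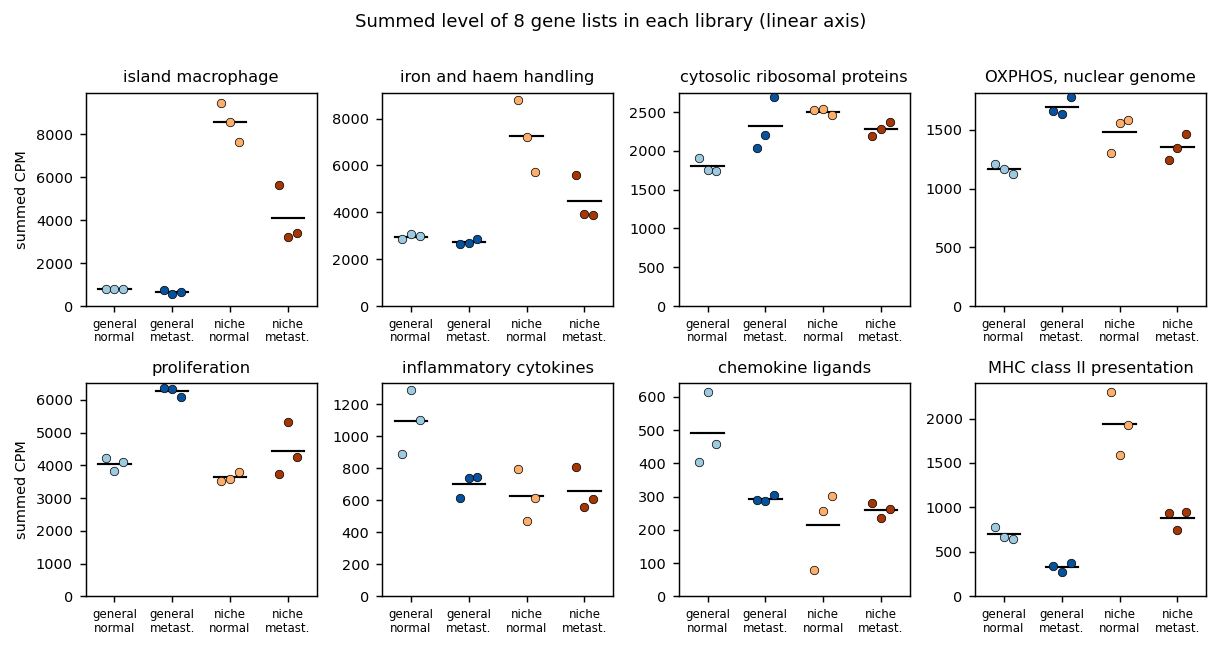
Summed CPM (linear axis from 0) of 8 gene lists in each of the 12 libraries, by group. The island sum lies between 3236 and 5656 CPM in metastatic niche libraries and between 7648 and 9470 CPM in normal ones, while the proliferation sum separates in general macrophages (3810 to 4212 against 6080 to 6359 CPM) and overlaps in niche macrophages.

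The lysosome list of 34 genes was evenly split, with 17 positive, 17 negative and a median of -0.03 that changed sign in 9 of 23 alternatives. At an unadjusted p under 0.05 there were 4 negative and 0 positive members, 11.8% against 7.89% of all genes. Ctsb, a cysteine protease of the lysosome, measured 977, 1342 and 1022 CPM in normal and 1017, 636 and 527 CPM in metastatic niche libraries, and 133, 161 and 236 CPM in normal and 214, 221 and 274 CPM in metastatic general libraries. Both pairs of groups overlapped, 1 niche library lying at the normal level, and the difference was -1.03 ± 0.39 with an edgeR p of 0.0164. Ctsd, the main aspartic protease, had a difference of -0.78 ± 0.35, with niche groups that did not overlap (1028, 1219 and 894 CPM against 807, 656 and 464 CPM). Scarb2, the receptor that delivers glucocerebrosidase to lysosomes, measured 400.4, 159 and 173 CPM against 166, 109 and 48.5 CPM in niche and 50.96, 33.2 and 37.3 CPM against 72.5, 63.6 and 77.5 CPM in general libraries. Its general groups separated upward and its niche groups overlapped by 1 library, with a difference of -1.99 ± 0.66.

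In general macrophages, summed ribosomal protein and nuclear respiratory chain transcripts were higher in metastatic marrow, except that the ribosomal groups overlapped with library size only. Of 88 cytosolic ribosomal protein genes 76 were tested, and 47 were negative and 29 positive with a median of -0.65, from a median effect of 0.53 in general and -0.29 in niche macrophages. Their sum was 1909.9, 1749 and 1739 CPM in normal and 2041, 2208 and 2696 CPM in metastatic general libraries. In niche libraries the sum was 2521, 2539 and 2457 CPM in normal and 2190.0, 2278 and 2369 CPM in metastatic marrow. The sums separated upward in general and downward in niche macrophages, and both separations were lost with library size only, where the log2 ratio of the niche means was 0.12.

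Rpl4, the ribosomal protein gene with the largest share of that sum, had a difference of -0.63 ± 0.39 and an edgeR p of 0.122. The 5 negative members at an unadjusted p under 0.05 made up 6.58% of those tested, against 7.89% of all genes, and were low and uneven: Rpl31 measured 0.0365, 13.9 and 5.93 CPM in metastatic general libraries and at most 6.83 CPM in any other. Many ribosomal protein genes have near-identical processed copies, and Rps4l, which the GENCODE annotation types as a transcribed pseudogene, stands among those 5, so the assignment of their reads is uncertain. Eef1a1 (chr9:78478449-78489151), the elongation factor that brings aminoacyl-tRNA to the ribosome and that also has such copies, measured 2731, 3636 and 3341 CPM in normal and 2259, 1946 and 2299 CPM in metastatic niche libraries. In general libraries it measured 1469, 1481 and 1293 CPM in normal and 1478, 1920.2 and 3406 CPM in metastatic marrow. The niche groups did not overlap and the general groups did, and the difference of -1.26 ± 0.34 had an edgeR p of 0.00164 and a DESeq2 adjusted p of 0.0158.

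Respiratory chain genes of the nucleus were negative in 40 and positive in 24 of 64 tested among 74 listed, with a median of -0.54. Their sum was 1205, 1165 and 1123 CPM in normal and 1662, 1638 and 1780.2 CPM in metastatic general libraries, and 1302, 1559 and 1587 CPM in normal and 1243, 1343 and 1466 CPM in metastatic niche libraries. The general groups separated upward under all 3 scalings and the niche groups overlapped. The median turned to 0.07 without normal niche library B. At an unadjusted p under 0.05 there were 2 positive and 2 negative members, 6.25% against 7.89% of all genes. Uqcrc2, a core subunit of complex III, had a difference of -1.99 ± 0.69, with 126, 140.4 and 155 CPM in normal and 32.3, 81.2 and 56.5 CPM in metastatic niche libraries and an edgeR p of 0.00911. Atp5k, a subunit of ATP synthase with 8 of 12 libraries at 0, had a fitted difference of 12.27 ± 4.98 and a DESeq2 adjusted p of 0.0012. Cox4i1, a subunit of cytochrome c oxidase outside the list and chosen after its values were seen, measured 1.22, 0.547 and 0.603 CPM in normal and 36.3, 26.8 and 39.1 CPM in metastatic niche libraries, with overlapping general groups and a difference of 5.16 ± 1.58.

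All 13 protein-coding genes of the mitochondrial genome had negative differences, with a median of -0.92, but they share 1 genome and its long precursor transcripts and are not independent values. The effect was positive in 13 of 13 in general and in 0 of 13 in niche macrophages, against 49.4% and 43.5% over all genes. The general count rested on normal general library 1, since without it the effect was positive in 5 of 13 with a median of -0.06, and the difference was negative in 12 of 13 with a median of -0.49. None reached an unadjusted p under 0.05. The sum was 874, 4388 and 3722 CPM in normal general libraries, so 1 library held far less than the other 2. Metastatic general libraries held 3949.5, 3871 and 3651 CPM, and niche libraries held 19956, 13563 and 15213 CPM in normal and 15261, 11420.1 and 9878 CPM in metastatic marrow. Groups overlapped in both populations. For the mitochondrial share of all counts, the difference between the 2 metastasis effects had an exact permutation p of 0.28 (two-sided, adjusted 0.373 over 4 library measures).

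Proliferation genes were higher with metastasis in general macrophages by sign in 30 of 30 members, and in niche macrophages in 18 of 30. The interaction was negative in 24 and positive in 6, with a median of -0.34 and 2 members at an unadjusted p under 0.05, 6.67% against 7.89% of all genes. The summed level was 4212, 3810.3 and 4085 CPM in normal and 6359, 6327 and 6080.5 CPM in metastatic general libraries, and 3511, 3579 and 3799 CPM in normal and 3749, 5322 and 4259.7 CPM in metastatic niche libraries. General groups separated under all 3 scalings, while niche groups overlapped except with library size only, where the metastatic ones were higher.

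Ccnb1, the cyclin of entry into mitosis, measured 116, 126 and 139 CPM in normal and 221, 259 and 200.2 CPM in metastatic general libraries, without overlap. Niche libraries held 178, 105 and 135 CPM in normal and 109, 116 and 131 CPM in metastatic marrow, with overlap, and the difference was -1.07 ± 0.45 with an edgeR p of 0.0285. Ccna2, the cyclin of S phase and G2, had a difference of -0.90 ± 0.40. Mki67, the member with the largest share of the sum, was at 0.07 ± 0.38, so the members did not all lean one way.

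Summed inflammatory and chemokine transcripts were lower in general macrophages of metastatic marrow and overlapped in niche macrophages, although the chemokine sum rested largely on Ccl6 (45.6% of it). The inflammatory cytokine and inflammasome list had 14 positive and 6 negative of 20 tested among 25 listed, and a median of 0.64. By members its median effect was -0.16 in general and -0.44 in niche macrophages, so the median of the differences, the order of the 2 medians and the sums do not point one way. Its sum was 889.9, 1289 and 1100.5 CPM in normal and 616, 736 and 744 CPM in metastatic general libraries, without overlap, and 797, 468 and 613 CPM against 809, 558 and 609 CPM in niche libraries, with overlap. The chemokine ligand list had 6 positive and 4 negative of 10 tested among 23 listed, and a median of 0.96 that ran from -0.21 to 1.5 over the alternatives, negative with the replicate block and without metastatic niche library 3. The general effect was positive in 5 of the 10 with a median of 0.01. Chemokine sums were 405, 614 and 457 CPM in normal and 288, 287 and 306 CPM in metastatic general libraries, and those of niche libraries overlapped between 78.5 and 303 CPM. Both general separations held under all 3 scalings.

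Il1rn, which encodes the antagonist of the interleukin-1 receptor, carried the largest share of the inflammatory sum. It measured 193, 408 and 272 CPM in normal and 93.3, 136 and 70.8 CPM in metastatic general libraries, and 138, 99.4 and 99.3 CPM in normal and 188, 46.2 and 113 CPM in metastatic niche libraries. General groups did not overlap and niche groups did, with a difference of 1.58 ± 0.63 and an edgeR p of 0.0203. Ccl6, a chemokine of myeloid cells with the largest share of the chemokine sum, measured 185, 453 and 295 CPM against 115, 89.3 and 119 CPM in general libraries, without overlap. In niche libraries it measured 54.6, 108 and 84.9 CPM against 67.01, 84.5 and 65.8 CPM, with overlap, and the difference was 1.35 ± 0.54 with an edgeR p of 0.0213. The summed monocyte markers, 59.4% of them Chil3, were higher with metastasis in general libraries (15585 to 16543 CPM in normal, 20319 to 21627 CPM in metastatic), and their part in these values was not tested.

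Clec7a, the beta-glucan receptor Dectin-1, was chosen after its values were seen, from the genes DESeq2 called with at least 10 counts in every library. It measured 133, 211 and 179.5 CPM in normal and 60.3, 72.3 and 39.9 CPM in metastatic general libraries, and 33.6, 40.6 and 5.47 CPM in normal and 95.9, 46.2 and 55.5 CPM in metastatic niche libraries. The groups separated downward in general and upward in niche macrophages, an arrangement that 23 of all tested genes (0.179%) shared. Each step alone was commoner, metastatic general libraries all lying below normal ones in 5.64% and metastatic niche libraries all lying above normal ones in 5.63% of tested genes. The difference was 2.91 ± 0.85, with an edgeR p of 0.0027 and a DESeq2 adjusted p of 0.0346. Itgb2, the beta chain that pairs with CD11b, measured 501, 494 and 339 CPM against 327, 308 and 383 CPM in general and 188, 206 and 182 CPM against 361, 270.0 and 261 CPM in niche libraries. Its niche groups separated upward and its general groups overlapped, with a difference of 1.02 ± 0.36 and an edgeR p of 0.0105.

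Summed MHC class II transcripts, 33.8% of them from H2-Aa and 27.0% from H2-Ab1, were lower with metastasis in both populations without overlap. By members the effect was positive in 0 of 12 in general and in 3 of 12 in niche macrophages. Sums were 780.1, 665 and 646 CPM in normal and 337, 271 and 379 CPM in metastatic general libraries, and 2295, 1591 and 1926 CPM in normal and 942, 748 and 945 CPM in metastatic niche libraries. Neither pair of groups overlapped under any of the 3 scalings. H2-Aa, the class II alpha chain and largest part of the sum, had an effect of -1.39 ± 0.28 in general and -1.48 ± 0.28 in niche macrophages and the difference of -0.09 ± 0.39 was smaller than its SE. The list's median difference was 0.35, with 8 positive and 4 negative of 12 tested among 13 listed. The list had 2 members at an unadjusted p under 0.05, 16.7% of those tested against 7.89% of all genes. Both were barely detected in normal niche libraries, H2-DMb1 at 0, 0 and 0.1 CPM and Ifi30 at 0.243, 0.249 and 0.1 CPM.

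Regulators of macrophage identity were mixed, with 16 positive and 10 negative of 26 tested among 27 listed and a median of 0.35. Irf8, which drives monocyte and dendritic cell development, measured 153, 130.5 and 206 CPM in normal and 89.4, 40.03 and 85.97 CPM in metastatic niche libraries, without overlap. In general libraries it measured 39.4, 43.8 and 60.1 CPM in normal and 92.3, 86.5 and 51.7 CPM in metastatic marrow, with overlap, and the difference was -1.87 ± 0.64 with an edgeR p of 0.0089. Zeb2, the member with the most counts, was lower in metastatic libraries of both populations without overlap (791, 615 and 599 against 349, 323 and 235 CPM in general, 1011, 609 and 553 against 390.0, 506 and 339 CPM in niche) and had a difference of 0.33 ± 0.38. Immediate early and stress genes had 21 positive and 8 negative of 29 tested among 30 listed, and a median of 0.45. Ier5, an immediate early gene, had a difference of 1.55 ± 0.63, with 163, 166 and 127 CPM in normal and 48.7, 79.6 and 97.3 CPM in metastatic general libraries.

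Among the remaining lists, the interferon response had 19 positive and 19 negative members of 38, a median of -0.02 and 3 members at an unadjusted p under 0.05 in each direction. Together these were 15.8% of the list, against 7.89% of all genes, and 5 members had a group at the floor. Chemokine receptors had 3 positive and 8 negative of 11 and a median of -0.41, negative in all 23 alternatives. Adhesion genes had 8 positive and 11 negative of 19 and a median of -0.15. At an unadjusted p under 0.05 there were 2 positive and 1 negative receptors and 1 positive and 3 negative adhesion genes, 27.3% and 21.1%. Glycolysis and hypoxia genes had 15 positive and 13 negative of 28 and a median of 0.02, and matrix and clotting genes 10 and 10 of 20 and a median of -0.02. MHC class I genes had 6 positive and 14 negative of 20 and a median of -0.35, and lipid uptake and efflux genes 8 positive and 13 negative of 21 and a median of -0.44. Both medians were negative in all 23 alternatives. At an unadjusted p under 0.05, 1 member of each list was positive and 1 class I member negative, 10% of class I and 4.76% of lipid members tested. Genes named for tumour-associated macrophages had 7 positive and 7 negative of 14 and a median of -0.08. Chil3, a chitinase-like protein of monocytes and neutrophil precursors, made up 91.5% of that list's sum, which was higher with metastasis in both populations. Tgfb1, the growth factor of the same list, measured 113, 99.2 and 98.96 CPM in normal and 16.8, 15.3 and 39.8 CPM in metastatic niche libraries, and its difference was -1.98 ± 0.79 with an edgeR p of 0.0219.

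**Figure D4:**
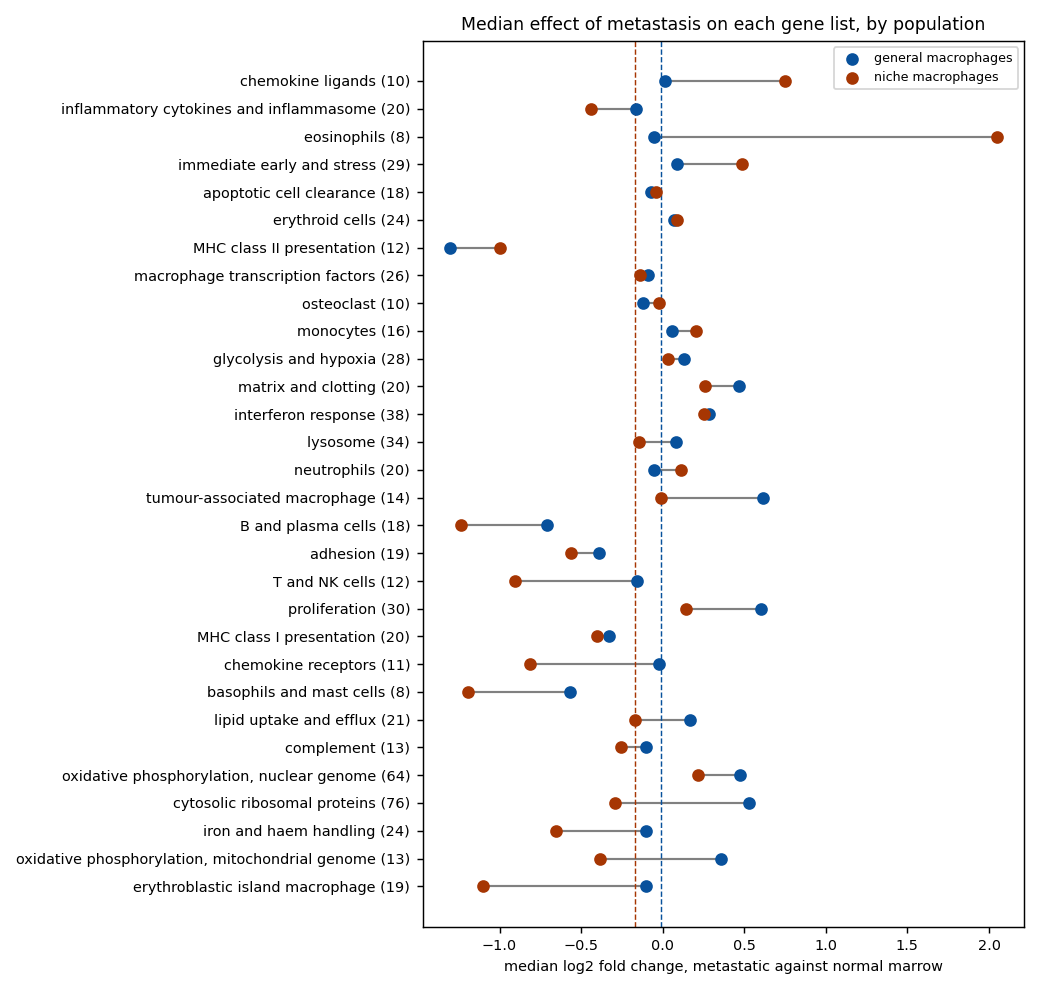
Median log2 ratio of metastatic to normal marrow in general (blue) and niche (brown) macrophages for the 30 gene lists with at least 8 tested genes, sorted by the median difference, with dashed lines at the medians of all tested genes (-0.01 general, -0.17 niche). Island, mitochondrial, iron and ribosomal lists are at the negative end and the inflammatory list and the chemokine ligand list, whose median turned negative in some alternatives, at the positive end.

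Among genes with at least 10 counts in every library there were 15 with a DESeq2 adjusted p under 0.05, 5 positive and 10 negative. They made up 0.308% of these genes, against 3.18% of all tested genes. Cd38 (chr5:43868553-43912375), an ectoenzyme that consumes NAD, measured 17.9, 14.2 and 15.7 CPM in normal and 57.5, 76.6 and 89.8 CPM in metastatic general libraries, without overlap and upward, as in 7.27% of tested genes. In niche libraries it measured 138, 419.6 and 160.1 CPM in normal and 241, 91.95 and 178 CPM in metastatic marrow, with overlap. The effect was 2.23 ± 0.47 in general and -0.49 ± 0.45 in niche macrophages, and the difference of -2.72 ± 0.65 had an edgeR p of 0.000488 and a DESeq2 adjusted p of 0.00832.

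Slc7a5, Skap2, Samsn1 and Neat1 were picked from the same 15 after their values were seen. Slc7a5, the transporter of large neutral amino acids, measured 4.26, 3.86 and 9.99 CPM in normal and 45.6, 83.97 and 24.7 CPM in metastatic general libraries, and its niche groups overlapped (138, 29.97 and 61.1 against 46.5, 51.9 and 71.3 CPM). Skap2, an adaptor of integrin signalling, was the reverse case, with 404, 322 and 375 CPM in normal and 143, 129 and 187 CPM in metastatic niche libraries and overlapping general groups (177, 205 and 237 against 236, 279 and 178 CPM). Their differences were -3.52 ± 1.08 and -1.42 ± 0.39, with DESeq2 adjusted p of 0.0259 and 0.0415. Slc7a5 separated upward in general macrophages and Skap2 downward in niche macrophages.

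Samsn1, an intracellular adaptor of blood cells, measured 40.3, 70.9 and 45.5 CPM in normal and 142, 174 and 249 CPM in metastatic niche libraries, without overlap, and 134, 267 and 152 against 244, 200.2 and 148 CPM in general libraries, with overlap. Neat1, the long RNA that scaffolds nuclear paraspeckles, measured 4326, 2545 and 3149 CPM in normal and 1177, 1319 and 1135 CPM in metastatic general libraries, without overlap, and 1772, 962 and 1506 against 1223, 1676 and 718 CPM in niche libraries, with overlap. Both had positive differences, 1.75 ± 0.53 for Samsn1 and 1.24 ± 0.40 for Neat1, with DESeq2 adjusted p of 0.0478 and 0.0479. The edgeR adjusted p of each of these genes was 0.452 or more.

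Genes whose libraries separated in opposite directions in the 2 populations numbered 68. Of these, 45 were lower in niche and higher in general macrophages (0.349% of tested genes) and 23 the opposite (0.179%). Separation in the same direction was commoner, with 89 genes lower and 63 higher in both populations. With library size only the split of the opposite ones was 33 to 36. Those with the most counts included Hnrnpl, an RNA-binding splicing regulator, M6pr, the receptor that carries enzymes to lysosomes, and Stt3b, a catalytic subunit of N-glycosylation. Hnrnpl measured 257, 334 and 292 CPM against 413, 454 and 338 CPM in general and 398, 497 and 559 CPM against 283, 355 and 316 CPM in niche libraries. The differences were -1.06 ± 0.34 for Hnrnpl, -0.81 ± 0.35 for M6pr and -1.22 ± 0.38 for Stt3b. Ckap4 (chr10:84526305-84534062), a membrane protein of the rough endoplasmic reticulum, had the mirror arrangement. It measured 371, 336 and 376 CPM against 255, 263 and 314 CPM in general and 72.6, 230.2 and 199.9 CPM against 356, 324 and 248 CPM in niche libraries, and its difference was 1.26 ± 0.47.

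The numerically largest differences came from genes that were at or near the floor in at least 1 group. Of the 526 positive genes at an unadjusted p under 0.05, 293 (55.7%) had at most 3 counts in all 3 normal niche libraries, against 12.4% of all tested genes. Of the 490 negative ones, 159 (32.4%) were at the floor in all normal general libraries and 150 (30.6%) in all metastatic niche libraries, against 7.002% and 5.22%. Among the DESeq2 calls, 140 of the 240 positive (58.3%) and 116 of the 170 negative (68.2%) had a group at the floor, against 20.5% of all tested genes. A fitted log2 difference of a gene with a group at the floor depends on how a count near 0 is treated and has no fixed size.

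Lhfpl2, a membrane protein of the tetraspan family, measured 0.243, 0.298 and 0.301 CPM in normal and 43.8, 29.6 and 27.6 CPM in metastatic niche libraries, and 30.6, 39.5 and 28.7 against 30.8, 15.7 and 37.1 CPM in general libraries. Alpk1, the kinase that senses bacterial sugar nucleotides, measured 0.162, 0.199 and 0.301 CPM in normal and 17.5, 40.8 and 29.9 CPM in metastatic niche libraries. E2f1, a transcription factor of S phase entry, measured 0.0812, 0.249 and 0.151 CPM in normal and 20.5, 37.3 and 24.4 CPM in metastatic niche libraries. In all 3 genes the normal niche libraries stood apart from the other 9, so the interaction is carried by that 1 group. Normal niche libraries also had the fewest genes with at least 10 counts, 7689 to 9005 against 9585 to 11606 in metastatic niche libraries, and 3141 to 4269 tested genes at or under 3 counts against 1733 to 3040. The part of this in the differences was not tested. Cebpa, the myeloid transcription factor, had the same form, at 0.243, 0.298 and 0.1 CPM in normal and 18.6, 11.2 and 19.8 CPM in metastatic niche libraries.

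Of the negative genes, Cbx6, a Polycomb component, measured 0.137, 0.237 and 0.35 CPM against 7.59, 11.8 and 2.85 CPM in general and 106, 56.5 and 46.5 CPM against 14.4, 3.37 and 22.3 CPM in niche libraries. It separated in opposite directions, with a fitted difference of -7.28 ± 1.77. P2ry1, a receptor for ADP, measured 40.3, 0.646 and 20.8 CPM in normal and 0.202, 0.0437 and 0.185 CPM in metastatic niche libraries, all 3 of the latter at or near the floor, and 20.1 to 63.1 CPM in general libraries. H2bc13, a histone H2B gene with near-identical relatives, measured 0, 0 and 0.0999 CPM against 10.7, 4.56 and 16.8 CPM in general and 72.3, 50.8 and 13.7 CPM against 0.0505, 0 and 6.14 CPM in niche libraries. Its fitted difference was -12.46, and -10.37 with groups set to the floor where they lay under it.

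**Figure D5:**
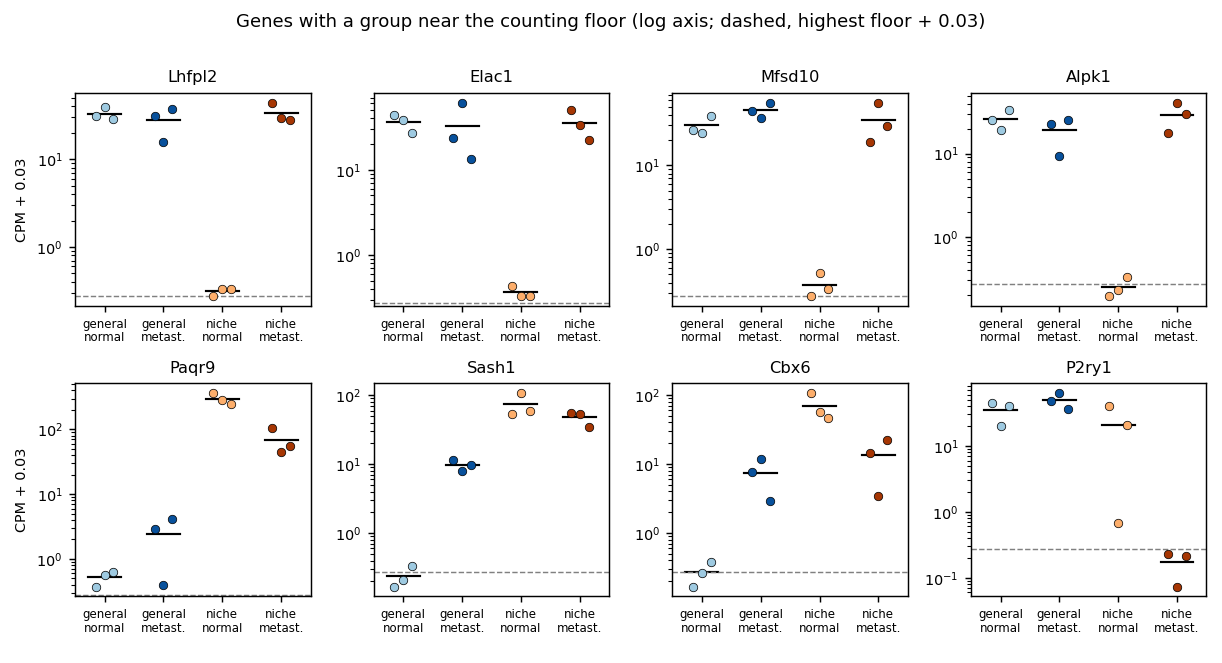
Levels of 8 genes with large fitted differences, as CPM plus 0.03 on a log axis, in the 12 libraries, with a dashed line at the level of 3 counts in the shallowest library (0.243 CPM plus 0.03). The normal niche libraries of Lhfpl2, Elac1, Mfsd10 and Alpk1 lie at or near the line while all other libraries lie far above it, and Paqr9, Sash1 and Cbx6 lie near it in normal general libraries.

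Erythroid transcripts summed to 1201 to 1842 CPM in normal and 950.1 to 2218 CPM in metastatic niche libraries, with 24 of 26 markers tested, and to 57.4 to 164 CPM and 104 to 137 CPM in general libraries. The list had 13 positive and 11 negative members and a median of 0.36, which turned negative in 4 of 23 alternatives. Slc4a1, the anion exchanger of red cells, had a difference of -2.71 ± 0.90, with 0.343, 0.475 and 0.599 CPM in normal and 4.20, 0.452 and 4.02 CPM in metastatic general libraries. The alpha-globin genes Hba-a1 and Hba-a2 are near-identical and had opposite fitted differences (7.29 and -5.49), so their reads may be split and only their sum is read. The sum was 159, 128 and 68.4 CPM in normal and 276, 55.2 and 73.4 CPM in metastatic niche libraries, which overlapped.

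B and plasma cell transcripts were more abundant in niche libraries (1456 to 2754 CPM in normal, 1231 to 4138 CPM in metastatic) than in general ones (195 to 277 CPM and 103 to 145 CPM). The list had 8 positive and 10 negative of 18 tested members and a median of -0.10, with a median effect of -0.71 in general and -1.24 in niche macrophages. Ighm was its 1 member at an unadjusted p under 0.05, 5.56% of those tested against 7.89% of all genes. Ighm, the mu heavy chain, measured 544, 217 and 770.5 CPM in normal and 509, 1542 and 693 CPM in metastatic niche libraries, and 185, 111 and 98.01 against 72.2, 84.01 and 56.6 CPM in general ones. The general groups separated downward and the niche groups overlapped, with a difference of 1.73 ± 0.59 and an edgeR p of 0.0087. Neutrophil transcripts summed to 24139.9 to 25194 CPM in normal and 17479.8 to 29136 CPM in metastatic general libraries, and to 12348 to 15275 CPM and 13660.3 to 14692 CPM in niche ones. The neutrophil list had 10 positive and 10 negative members and a median of -0.06. Its 2 members at an unadjusted p under 0.05 were positive, 10% of those tested against 7.89% of all genes. Camp, a granule peptide of neutrophil precursors, had a difference of 0.68 ± 0.30 and Fcnb, a ficolin of immature neutrophils, of 1.66 ± 0.66.

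Monocyte transcripts summed to 15585 to 16543 CPM in normal and 20319 to 21627 CPM in metastatic general libraries, and to 6066 to 7440.3 CPM and 9619 to 12243 CPM in niche libraries. Chil3 made up 59.4% of this sum, and over the 16 members the median effect was 0.06 in general and 0.21 in niche macrophages, with 2 members separating higher and 2 lower in each. Cx3cr1, the fractalkine receptor of patrolling monocytes, measured 140.2, 119 and 127 CPM in normal and 9.49, 0.136 and 10.3 CPM in metastatic general libraries. In niche libraries it measured 35.1, 19.4 and 1.05 CPM and 19.8, 0.524 and 31.97 CPM, which overlapped, and the difference was 4.19 ± 1.84 with an edgeR p of 0.0345. The eosinophil sum, which bears on Ccr3, was 80.5 to 128 CPM in normal and 7.87 to 122 CPM in metastatic niche libraries, ranges that overlapped. Of 14 epithelial markers, 4 were in the table and 2, Cdh1 and Krt7, were tested, and the sum of the 4 did not exceed 33.8 CPM in any library. The part of other cells in the differences above was not tested.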

How the data were processed

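Libraries were made from RNA depleted of ribosomal RNA, per the labels' protocols. What the authors deposited is a matrix of expected counts, that is, read counts estimated per gene, of which 73.9% are whole numbers; STAR 2.7.3a, Partek, DESeq2 1.40.2 and mm10 are named in the submitters' processing notes. Their roles, the gene annotation and strand use are not given in the sources used here, so reads of overlapping or near-identical genes cannot be told apart.

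The deposited counts were rounded to whole numbers and analysed in R 4.3.3. Genes were filtered with filterByExpr, scaled by the trimmed mean of M-values and fitted with edgeR 4.0.16 (quasi-likelihood test, 4 group means, all 12 libraries, Benjamini-Hochberg adjustment). The interaction was 1 contrast of the 4 means. DESeq2 1.42.0 and limma 3.58.1 (voom) were alternatives, beside other scalings, filters, a replicate block and leaving out each library. The edgeR test was tried on simulated counts, where recovery was required only at a dispersion lower than that of these data. That trial does not show how many real differences the test would miss here. The floor was 3 counts per library. Coordinates are from GENCODE M21 (GRCm38), which held 12634 of the 12882 tested symbols.

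Named genes were the 5 antigens, the 10 smallest p in each direction with a mean of at least 10 CPM, up to 3 members per list by p, and the 6 genes of highest mean CPM that separated in opposite directions. Predicted genes, clones, small RNAs and pseudogenes were left out of the ranked choices by symbol, and not every gene that the rule names is reported here. Genes with the highest or second highest share of a list's sum, and 6 genes called by DESeq2, were added after their values were seen, as were the summed list levels by scaling and a fit on libraries thinned to the smallest total. The 34 gene lists and the members were chosen with earlier results of these data known. A list is described by counts and its median beside all tested genes, with no test.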

Additional observations from a re-analysis of the deposited data

Results flagged for a closer look

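In 9 named genes every metastatic niche library lay on one side of the normal niche libraries and every metastatic general library on the opposite side. Such genes make up 0.349% (lower in niche) and 0.179% (higher in niche) of those tested, and most of the 9 were named because of this arrangement or after their values were seen, so their number is no result. The difference itself was not called for any of them by edgeR. Downward in niche and upward in general macrophages were Ccr3 (log2 difference -2.05), Hnrnpl (-1.06), Stt3b (-1.22), Itgav (-0.99), M6pr (-0.81), Cbx6 (-7.28) and H2bc13 (-12.46). Cbx6 and H2bc13 rest on groups near 0 counts, and H2bc13 has near-identical relatives. Upward in niche and downward in general macrophages were Ckap4 (1.26) and Clec7a (2.91). DESeq2 called Ccr3, Cbx6, H2bc13 and Clec7a, with adjusted p of 0.0248, 3.23e-05, 9.1e-05 and 0.0346.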

How the results depend on the processing

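With 3 libraries a group, most genes have an SE too large to show a difference of 1 log2 unit, and low-count genes depend on how counts near 0 are treated. The number of genes called in the interaction was 410 with DESeq2 against 0, and 0 to 16 with each library left out in turn (1 without metastatic general library 2, 16 without normal niche library B). At an unadjusted p under 0.05 there were 1694 genes without the low-count filter, 260 among genes with at least 10 counts in every library, 1563 with DESeq2 and 995 to 1525 with each library left out (1525 without normal niche library B). With the replicate block the count was 751, 280 positive and 471 negative. Only 1 of 9 same-numbered pairs had deviations correlated over 0.1 (-0.0803 to 0.113, against -0.179 to 0.132 for other pairs). This check left out the normal niche libraries, whose numbers differ between titles and columns, and rests on groups of 3. It cannot exclude pairing, and the libraries were treated as unpaired.

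The metastasis effect called 2 genes in general macrophages, and 0 with library size only, 5 without filter, 141 with DESeq2, 8 with limma-voom, 23 with sample quality weights, 1 with the replicate block and 0 to 4 with a library left out. In niche macrophages it called 1 gene, and 0 with median-of-ratios factors, 0 with library size only, 3 without filter, 3 with counts in every library, 954 with DESeq2, 14 with limma-voom, 11 with sample quality weights, 4 with robust dispersion, 2 without haemoglobin, immunoglobulin, mitochondrial and small nucleolar RNA genes, 0 with the replicate block and 0 to 66 with a library left out (66 without normal niche library B, 26 without C). Genes separating in opposite directions numbered 68, 24 among genes with counts in every library (15 higher in niche) and 121 to 174 with a library left out, where groups of 2 separate more easily.

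The median over all genes was -0.07 with median-of-ratios factors, 0.10 with library size only, -0.34 with the replicate block and 0.08 without metastatic general library 3. Over all alternatives the list medians kept their sign for the sorting antigens (-1.59 to -0.69), island (-1.25 to -0.67), iron (-0.86 to -0.31), ribosomal (-0.98 to -0.16), mitochondrial genome (-1.21 to -0.49), proliferation (-0.55 to -0.12), class II (0.26 to 0.75) and inflammatory lists (0.23 to 1.12). With library size only the medians of the adhesion (0.12), interferon (0.22), lysosome (0.19), matrix (0.19), neutrophil (0.16), tumour-associated macrophage (0.16), B and plasma cell (0.05) and T and NK cell (0.03) lists turned positive. Of the named genes, H2-Aa and Mki67 changed sign, both close to 0. H2-Aa was at 0.11 with library size only, 0.0727 among genes with counts in every library and -0.27 to 0.34 with a library left out, and Mki67 at -0.13 to 0.54 with a library left out. The other named genes kept their direction in every alternative that could be fitted.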

Other observations

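Values follow for 4 further genes, each chosen by the rule for named genes. Siae, an enzyme that removes acetyl groups from sialic acid, measured 111, 54.4 and 84.8 CPM in normal and 3.89, 8.39 and 14.9 CPM in metastatic niche libraries, without overlap, and 17.99, 7.12 and 8.09 against 37.5, 77.6 and 9.99 CPM in general libraries. Its log2 difference was -5.11 ± 1.34, with a DESeq2 adjusted p of 0.00131. Trem2, a lipid receptor of macrophages, measured 0, 0 and 0.05 CPM in normal and 24.4, 13.2 and 14.1 CPM in metastatic general libraries, and 43.3, 20.4 and 13.4 against 34.8, 0 and 0.037 CPM in niche libraries. Here 2 of the 3 metastatic niche libraries and all normal general libraries were at or under the floor, and DESeq2 gave an adjusted p of 0.00468. Cd209a, a lectin of monocyte-derived dendritic cells, measured 12.3, 26.9 and 21.1 CPM in normal general libraries and 0, 0.0452 and 0.0366 CPM in metastatic ones, with 1 of 6 niche libraries above the floor (13.6 CPM). Kitl, the ligand of KIT made by marrow stroma, measured 102, 92.1 and 48.8 CPM in normal and 90.1, 23.7 and 39.8 CPM in metastatic niche libraries, and at most 4.597 CPM in general libraries.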
